A study of Mus musculus with 10 samples.

Results

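The matrix metalloproteinases, the ADAMTS proteases and the tissue inhibitors of metalloproteinases were examined as a gene module in immortalized mouse embryo fibroblasts (iMEF). Members were all protein-coding genes of mm10 with a symbol of the form Mmp plus a number, Adamts plus a number, or Timp1 to Timp4. This rule gave 45 of the 21938 protein-coding genes, of which 22 were Mmp, 19 were Adamts and 4 were Timp genes, and it used no measured value.

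Matrix metalloproteinases (MMPs) are zinc-dependent enzymes that are made as inactive precursors and cleave collagens, proteoglycans and other components of the extracellular matrix. ADAMTS enzymes are related secreted proteases with thrombospondin repeats, several of which cut cartilage proteoglycans or trim procollagen. TIMPs bind the active site of these enzymes and block it. Fibroblasts are a main source of many of these proteins, and several MMP genes are known as targets of AP-1, the transcription factor formed by Fos and Jun proteins.

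The cells came from a conditional knockout mouse, carried a deletion of exon 4 in their endogenous Ash2l alleles and lived on a lentiviral fusion of FKBP12(F36V), HA2 and human ASH2L, as a line grown from a single clone. All 5 groups shared this genotype. Besides cells without dTAG (the methods name ethanol as the control), there were cells given dTAG-13, which triggers degradation of the fusion protein, for 30 min, 4 h, 8 h or 24 h, with 2 replicates each. The labels do not say whether replicates were separate cultures. ATAC-seq, in which the Tn5 transposase cuts accessible chromatin, was performed on these 10 libraries. The values analysed here were the positions of the 153924 accessible sites found over all libraries, 153682 of them on chromosomes. The list gives no signal, count or library of origin, so depth is unknown, untreated and treated cells were not compared, and no value has a replicate error. A listed site was accessible in at least some of the cells, and a place without a listed site is not shown to be closed. Intervals given below are 95% Wilson intervals for shares and order-statistic intervals for medians, which cover counting only, since genes and sites are not replicates.

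In these cells 40 of the 45 members had an accessible site within 1 kb of an annotated start site, here called a promoter site (88.9%, interval 76.5 to 95.2%). The share over all protein-coding genes was 70.8%. A site lay in the gene body in 42 members (93.3%, interval 82.1 to 97.7%), against 77.1% of all genes. The body runs from the first to the last annotated base, and promoter sites that overlap it count as body sites too. Of the 341 body sites, 293 were not promoter sites. Within 50 kb of the body, 45 of 45 members had a site, against 90.8% of all genes. Members and all genes had the same median of 3 annotated start sites per gene. The median length was 25.1 kb for members and 17.4 kb for all genes, and the body and 50 kb shares were not adjusted for length. The genes that lacked a promoter site were Mmp7, Mmp8, Mmp20, Mmp21 and Adamts13, and the first 3 of these lie in the Mmp cluster of chromosome 9.

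That cluster runs from base 7272514 to base 7699585, a stretch of 427 kb with 10 Mmp genes. In order along the chromosome they are Mmp13, Mmp12, Mmp1b, Mmp3, Mmp1a, Mmp10, Mmp8, Mmp27, Mmp20 and Mmp7. All but Mmp1b are transcribed in the same direction. Mmp1a is a polymorphic pseudogene in the annotation used (GENCODE M21), so it is no member, and it is described here only as a neighbour. The cluster held 33 sites, or 7.73 per 100 kb compared to 6.09 per 100 kb on all of chromosome 9. Of these, 7 were promoter sites, 10 lay in Mmp gene bodies away from start sites and 16 lay between the Mmp genes. Among the latter, the sites of 1614 and 207 bp lay inside AV064505, an antisense gene that overlaps the end of Mmp20 and the start of Mmp7. In windows reaching 50 kb around its 9 member genes, the density relative to chromosome 9 had a median of 1.19. For all protein-coding genes the median relative to the own chromosome was higher, at 1.46. A CpG island, a stretch rich in unmethylated CpG in many promoters, was found at 0 start sites of the cluster.

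**Figure D1:**
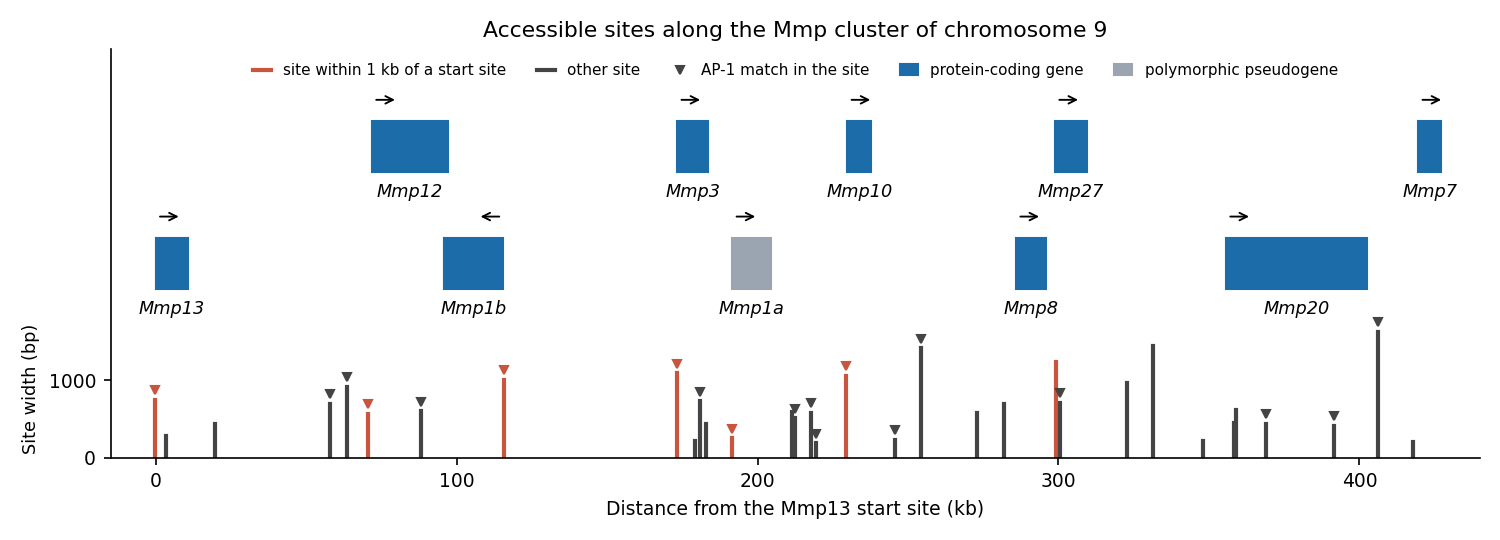
Accessible sites along the Mmp cluster of chromosome 9, with distance from the Mmp13 start site in kb on the horizontal axis. Boxes are genes, arrows give the direction of transcription, the height of each line is the width of a site in bp, and triangles mark sites with an AP-1 match. Of the 33 sites, 7 lie within 1 kb of a start site and 19 hold an AP-1 match, while Mmp8, Mmp20 and Mmp7 lack a promoter site.

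The sequences before the start sites of the cluster are shown for 7 of its genes, because the TATA box and the AP-1 motif were found more often in the windows at hand for the cluster than in those for the other members. Mmp8 and Mmp20 were searched but are not printed. Each window covers 130 bases before and 20 bases after the RefSeq start of mm10, 5′ to 3′ on the strand of the gene. Capitals mark the TATA box (TATAAA, on the strand of the gene), the AP-1 motif (TGACTCA, read on the other strand as TGAGTCA) and the GC box (GGGCGG, read on the other strand as CCGCCC). The first 4 genes have a site over the start, Mmp7 has none within 1 kb, and Mmp27 and Mmp12 have a promoter site but no marked motif in this window.
Mmp13, chr9:7272384-7272533, plus strand: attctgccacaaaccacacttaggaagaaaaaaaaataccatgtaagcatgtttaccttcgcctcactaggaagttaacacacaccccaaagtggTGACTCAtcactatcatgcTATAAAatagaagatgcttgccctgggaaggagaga
Mmp3, chr9:7445692-7445841, plus strand: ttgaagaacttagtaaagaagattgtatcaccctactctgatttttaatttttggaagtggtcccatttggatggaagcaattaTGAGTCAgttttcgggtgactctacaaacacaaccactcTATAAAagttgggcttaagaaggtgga
Mmp10, chr9:7502212-7502361, plus strand: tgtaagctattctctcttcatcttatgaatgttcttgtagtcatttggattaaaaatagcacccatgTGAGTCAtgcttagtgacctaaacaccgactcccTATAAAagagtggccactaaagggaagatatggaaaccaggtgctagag
Mmp1b, chr9:7388007-7388156, minus strand: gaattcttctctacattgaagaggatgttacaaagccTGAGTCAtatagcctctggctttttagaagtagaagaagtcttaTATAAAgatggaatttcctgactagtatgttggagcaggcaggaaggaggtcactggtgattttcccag
Mmp7, chr9:7691960-7692109, plus strand: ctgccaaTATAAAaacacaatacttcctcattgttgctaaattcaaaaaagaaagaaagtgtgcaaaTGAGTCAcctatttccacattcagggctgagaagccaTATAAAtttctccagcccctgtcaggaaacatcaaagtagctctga
Mmp27, chr9:7571266-7571415, plus strand: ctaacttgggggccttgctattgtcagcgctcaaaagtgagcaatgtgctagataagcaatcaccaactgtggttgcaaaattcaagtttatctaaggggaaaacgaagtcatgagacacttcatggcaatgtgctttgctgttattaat
Mmp12, chr9:7344267-7344416, plus strand: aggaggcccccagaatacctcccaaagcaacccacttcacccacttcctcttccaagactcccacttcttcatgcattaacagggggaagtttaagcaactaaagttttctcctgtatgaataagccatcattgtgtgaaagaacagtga

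For contrast, the windows of Mmp14, the membrane-type protease with a wide site over its start, and of 2 inhibitors without a CpG island are given in the same way.
Mmp14, chr14:54431468-54431617, plus strand: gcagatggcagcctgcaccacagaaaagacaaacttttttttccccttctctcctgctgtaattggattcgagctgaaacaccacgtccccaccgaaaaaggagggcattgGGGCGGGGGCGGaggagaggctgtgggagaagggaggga
Timp1, chrX:20870036-20870185, plus strand: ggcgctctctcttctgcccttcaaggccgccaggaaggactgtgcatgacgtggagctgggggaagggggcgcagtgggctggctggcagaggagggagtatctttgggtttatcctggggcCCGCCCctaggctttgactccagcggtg
Timp4, chr6:115252186-115252335, minus strand: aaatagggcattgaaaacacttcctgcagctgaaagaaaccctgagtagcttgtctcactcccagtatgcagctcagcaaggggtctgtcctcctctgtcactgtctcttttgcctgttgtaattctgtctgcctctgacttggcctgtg

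RefSeq windows of 250 bases before to 50 bases after the start were at hand for 31 members, and for 16522 protein-coding genes in all. Not searched in this way were Mmp2, Mmp9, Mmp16, Mmp17, Mmp19, Adamts4, Adamts5, Adamts6, Adamts7, Adamts8, Adamts10, Adamts15, Adamts16 and Adamts19, all outside the cluster. The TATA box was found in 6 of 9 cluster genes, 1 of 8 other Mmp genes, 1 of 10 Adamts genes and 0 of 4 Timp genes, compared to 8.63% of all windows. The AP-1 motif was found in 5 of the 9 cluster genes, Mmp13, Mmp3, Mmp10, Mmp1b and Mmp7, and in 0 of the other 22 members searched, compared to 4.52% of all windows. Among the members not searched in this way, Mmp19 had an AP-1 match 32 bp upstream of its 5′ end, inside its promoter site. The GC box showed the opposite distribution, with 0 of 9 cluster genes, 6 of 8 other Mmp genes, 8 of 10 Adamts genes and 3 of 4 Timp genes, compared to 48.2% of all windows. An ETS motif (AGGAAGT, both strands) was held by 4 of 9 cluster genes, 0 of 8 other Mmp genes, 0 of 10 Adamts genes and 2 of 4 Timp genes, compared to 9.38% of all windows. By their letters, the ETS motif can share a base with the TATA box or the AP-1 motif, and no other pair among these motifs can overlap. The 9 cluster genes all lack a CpG island, whereas 57.8% of all protein-coding genes have one. No motif share was computed over windows without an island, so these counts do not separate the cluster from other genes without one. A match is a match of letters and not a bound site, and the counts describe few genes of shared ancestry.

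The collagenases cut fibrillar collagen. Mmp13, collagenase-3, had a site of 744 bp (chr9:7271943-7272686) that covered its start and reached 571 bp upstream. The AP-1 match shown above lay inside this site, 35 bp upstream of the 5′ end. A second site of 279 bp lay in its body, and a site of 2051 bp with 3 AP-1 matches was centred 9861 bp upstream, the widest site away from start sites in the neighbourhood of any Mmp gene. Mmp1b, a rodent counterpart of interstitial collagenase, was grouped with the collagenases here, but its own activity on collagen was not examined. This gene had a site of 1006 bp (chr9:7387702-7388707) over its start with the AP-1 match within, and it was the only site in the body. Mmp8, the neutrophil collagenase, had neither a promoter site nor a body site, and its start was 3591 bp from the nearest site.

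The Mmp1a pseudogene had a site of 249 bp (chr9:7463910-7464158) over its start, the narrowest promoter site of the cluster, and an AP-1 match 73 bp upstream of the 5′ end. Over 1000 bp around their starts, Mmp1a and Mmp1b were identical at 81.3% of 879 aligned bases. How reads that fit both copies were treated is not given in the sources used here, so the sites at both genes are uncertain to that extent.

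The stromelysins Mmp3 and Mmp10 cleave proteoglycans and can activate other MMPs. Mmp3 had a site of 1085 bp (chr9:7445205-7446289) over its start and 3 further sites in its body, of 213, 725 and 440 bp. With 39.4 body sites per 100 kb it was the densest gene of the cluster. Mmp10 had a site of 1052 bp (chr9:7501503-7502554) that began 849 bp upstream and ended 202 bp inside the gene, with no other site in its body. In both genes the AP-1 match of the printed window lay inside the site, 46 bp upstream of the 5′ end in Mmp3 and 73 bp upstream in Mmp10.

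Mmp12, the macrophage metalloelastase, had a promoter site of 566 bp (chr9:7342876-7343441) that contained no start, since it ended 940 bp upstream of the 5′ end. It held an AP-1 match, 985 bp upstream. Mmp12 and Mmp1b overlap tail to tail by 1261 bp, and a stretch of 26.9 kb that contains this overlap held no site. Mmp27 had a site of 1231 bp (chr9:7571109-7572339) over 3 annotated starts, the widest promoter site of the cluster and the 1 promoter site of the cluster without an AP-1 match. Mmp20, the enamel protease enamelysin, had 4 sites in its body of 46.7 kb, the nearest 2415 bp from its start. Mmp7, matrilysin, an enzyme known from glandular epithelia, lay in a gap of 23.5 kb without a site, and its start was 1785 bp from the nearest site, which lay near the pseudogene Gm19212. The window of Mmp7 shown above, with TATA boxes and an AP-1 motif, was therefore not covered by a listed site.

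Between the genes, the longest stretch without a site was 56.5 kb, between the promoter sites of Mmp1b and Mmp3. Between the end of Mmp1a and the promoter site of Mmp10 lay 4 sites of 583, 507, 582 and 186 bp, and 3 of them had an AP-1 match in their middle 200 bp. The matches are printed with 12 bases on each side, together with those of the Mmp12 and Mmp1a promoter sites, because they carry the motif outside the windows above. Capitals mark the AP-1 motif.
Mmp12 promoter site, chr9:7343384-7343414, plus strand: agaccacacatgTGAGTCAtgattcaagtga
Mmp1a promoter site, chr9:7464056-7464086, plus strand: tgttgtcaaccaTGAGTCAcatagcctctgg
Site of 507 bp, chr9:7484827-7484857, plus strand: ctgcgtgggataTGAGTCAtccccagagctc
Site of 582 bp, chr9:7490361-7490391, plus strand: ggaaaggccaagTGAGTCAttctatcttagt
Site of 186 bp, chr9:7491872-7491902, plus strand: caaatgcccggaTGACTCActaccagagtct

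In the whole cluster 10 of 33 sites had an AP-1 match in their middle 200 bp (30.3%, interval 17.4 to 47.3%), against 14.7% of all sites and 16.2% of all sites away from start sites. Searching whole sites gave 19 of 33 (57.6%, interval 40.8 to 72.8%), against 29.4% of all sites. The median width of the cluster sites was 583 bp, against 619 bp for all sites. Over the 739 sites within 50 kb of any member, 105 had a match in the middle (14.2%, interval 11.9 to 16.9%), with 13.9% for Mmp, 14.3% for Adamts and 14.8% for Timp sites. In whole sites the share was 33.7% around Mmp (interval 28.2 to 39.8%), 24.6% around Adamts (interval 20.8 to 29.0%) and 37.7% around Timp genes (interval 26.6 to 50.3%). The Mmp sites include those of the cluster.

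**Figure D2:**
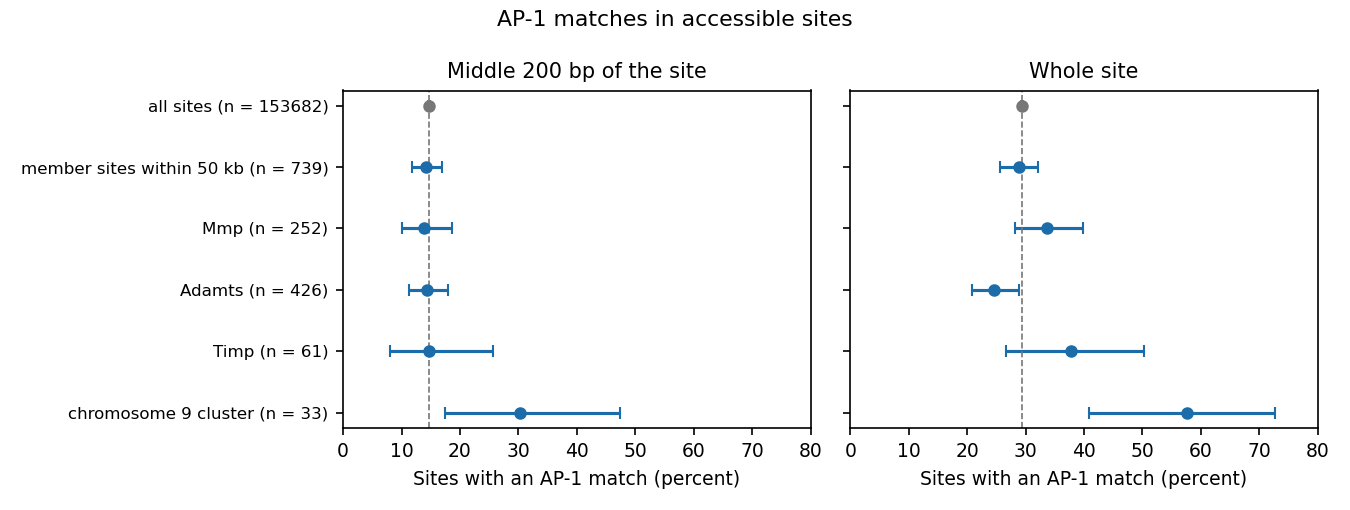
Percent of accessible sites with an AP-1 match in the middle 200 bp (left) and in the whole site (right). Points are shares, bars are 95% Wilson intervals and the dashed line is the share over all sites. The cluster stands at 30.3% and 57.6%, to the right of the other sets, whose points in the left panel lie between 13.9% and 14.8%. The cluster sites are also part of the Mmp set and of the member set.

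For the CTCF, RUNX, TEAD and ETS motifs, the interval of the share among the middles of the 739 sites included the share over all sites. The CTCF consensus was found in 2.84% of the member sites and 2.84% of all sites. RUNX (TGTGGTT) stood at 7.85% and 8.09%, TEAD (GGAATGT) at 6.90% and 5.86%, and ETS (AGGAAGT) at 4.60% and 5.51%. EGR (GCGGGGGCG or GCGTGGGCG) was found in 0 of 739 middles, against 0.463% of all sites. The limit that a count of 0 allows, 3 counts of the total, was 0.406%, and the upper end of the Wilson interval was 0.517%, so the share over all sites lay between these bounds. In whole sites it was found in 7 of the 52 promoter sites of the module (13.5%, interval 6.68 to 25.3%), compared to 11.6% of the promoter sites of all protein-coding genes. These were at Mmp2, Mmp11, Mmp14, Mmp17, Mmp24, Adamts7 and Adamts14, and in Mmp14 the match lay 31 bp upstream of the 5′ end, within the run of GC boxes printed above. All motifs of this paragraph were searched on both strands. The search used exact letters except for the CTCF consensus, which allowed alternative letters at some positions.

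Outside the cluster, 12 of 13 Mmp genes had a promoter site, and 11 of them had a CpG island within 1 kb of a start site. Over the whole module 27 of 45 members had such an island (60.0%, interval 45.5 to 73.0%), close to 57.8% of all genes. Members with an island had a promoter site in 27 of 27 cases, and 95.8% of all such genes did. Among members without an island 13 of 18 had a promoter site (72.2%, interval 49.1 to 87.5%), against 36.5% of all genes without an island. Cluster genes made up 6 of these 13. The other 7 were Mmp19, Adamts4, Adamts6, Adamts12, Adamts16, Timp1 and Timp4.

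A promoter site need not cover a start. At least 1 annotated start lay inside a site in 38 members (84.4%), against 65.0% of all genes, and the 5′ end of the gene itself in 32 members (71.1%), against 58.5% of all genes. Nearest to the limit of 1 kb, the sites of Mmp12 and Adamts16 lay 940 and 979 bp from a start and counted, whereas the site next to Mmp7 lay 1785 bp away and did not.

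**Figure D3:**
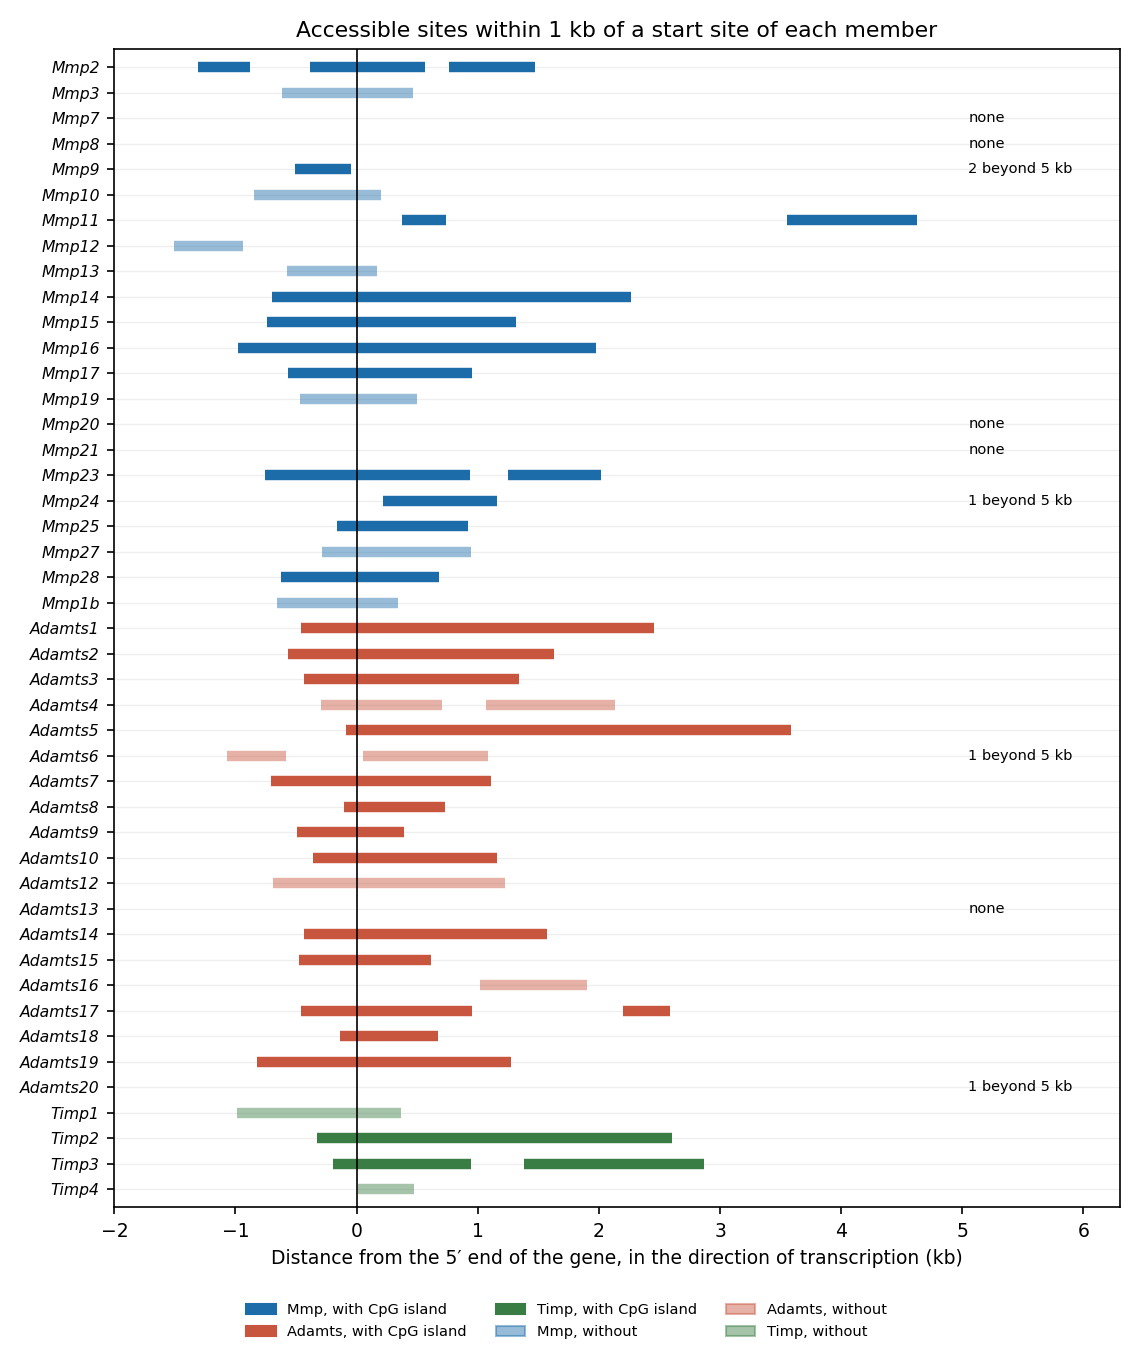
Sites within 1 kb of any annotated start site, drawn to scale against the distance from the 5′ end of the gene in kb, for the 45 members. Strong colours are genes with a CpG island and pale colours genes without, and sites more than 5 kb inside a gene are given as a number. In 32 members a bar crosses the line at 0, and 5 members have no bar and are marked none.

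The gelatinases Mmp2 and Mmp9 cleave denatured collagen and the collagen of basement membranes. Mmp2 had 3 promoter sites, the middle one of 948 bp over the 5′ end and the others of 423 bp upstream and 712 bp inside the gene. Mmp9 also had 3, but its 5′ end lay outside them. The first ended 48 bp upstream of it. The others, of 1006 and 904 bp, ran from 6739 to 7744 bp and from 12172 to 13075 bp inside the gene. The former covered an internal start, whereas the latter lay within 1 kb of an internal start but covered none. The site of 1006 bp held 2 AP-1 matches. Mmp2 had 4 and Mmp9 had 2 body sites. Within 50 kb Mmp9 had 21 sites and Mmp2 had 15, or 2.88 and 2.13 times the density of their own chromosomes.

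Membrane-type MMPs are anchored at the cell surface, and Mmp14 is the activator of the Mmp2 precursor. All 6 (Mmp14, Mmp15, Mmp16, Mmp17, Mmp24 and Mmp25) had a CpG island and a promoter site. Mmp14 had a site of 2969 bp (chr14:54430910-54433878) over 6 of its 7 annotated starts, and 20 sites within 50 kb, 3.67 times the density of chromosome 14. Mmp16 had a site of 2963 bp and Mmp15 a site of 2055 bp over the 5′ end. By contrast, the 5′ end of Mmp24 lay 219 bp outside its nearest site. Body sites ranged from 2 in Mmp25 to 18 in Mmp16, whose body is 266 kb long.

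Among the remaining MMPs, Mmp11, stromelysin-3, had 3 body sites. The wider of its promoter sites, of 1075 bp, covered internal starts, from 3551 to 4625 bp inside the gene. The RefSeq start used for the Mmp11 motif window lay in this site, 3994 bp inside the gene. Both promoter sites of Mmp11 also lay within 1 kb of a start of Chchd10 on the other strand. Mmp28, epilysin, had 26 sites within 50 kb, the most of any Mmp gene, and 6 in its body. Mmp23 had its 2 promoter sites as the only sites in its body of 2.73 kb. They gave it the highest body density of the module, 73.3 per 100 kb. Mmp19 had no island and a site of 969 bp over all 3 starts, which held the AP-1 match given above. Mmp28 and Mmp23 also held AP-1 matches in their promoter sites, 293 and 463 bp upstream. Mmp21 had neither a promoter site nor a body site, and its start lay 4080 bp from the nearest site.

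The ADAMTS enzymes that cleave proteoglycans such as aggrecan and versican had a promoter site in 7 of 7 genes. Adamts5 and Adamts1, both on chromosome 16, had sites of 3668 and 2912 bp, the former being the widest promoter site of the module. The Adamts5 site (chr16:85898245-85901912) started 84 bp upstream and reached 3583 bp into the gene. A further site of 3167 bp across the end of Adamts1, centred 10016 bp from its 5′ end, was the widest site away from start sites around any member. Adamts4, without an island, had sites of 993 and 1069 bp. Adamts20 had its promoter site of 1763 bp only at internal starts, from 60556 to 62318 bp inside the gene. The RefSeq start used for its motif window lay in this site, 61068 bp inside the gene. The 5′ end itself was 1577 bp from the nearest site. In this group body sites ranged from 1 in Adamts15 to 28 in Adamts20.

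The procollagen-processing genes Adamts2, Adamts3 and Adamts14 remove the amino-terminal propeptide of fibrillar collagens. Each had an island and a promoter site over the 5′ end, of 2195, 1770 and 2008 bp. Their bodies held 23, 19 and 5 sites. Adamts7 and Adamts12, which cleave the cartilage protein COMP, had promoter sites of 1814 and 1916 bp. The site of Adamts12 was the widest among members without an island. Adamts12 had 34 body sites, the most of the module, and 53 within 50 kb, compared to 6 and 10 for Adamts7. Chromosome 15, which carries Adamts12, holds 9.64 sites per 100 kb over its whole length, and the density around Adamts12 was 1.43 times that value.

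Adamts13, which cleaves von Willebrand factor and is known from hepatic stellate cells, was the only Adamts gene without a promoter site. Its 5′ end was 8405 bp and the nearest of its 3 starts 2865 bp from a site, although 4 sites lay in its body. Of the others, Adamts16 had a site of 891 bp that came only within 979 bp of a start, and that also lay within 1 kb of a start of Gm36529. Its body nevertheless held 27 sites, or 23.7 per 100 kb. Adamts6 had 3 promoter sites of 490, 1037 and 445 bp, none of which reached the 5′ end, 50 bp away at the nearest. Adamts17 had 22, Adamts18 had 15 and Adamts10 had 4 body sites. The lowest density among members with a body site was 2.76 per 100 kb, in Adamts19.

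All 4 inhibitors had a promoter site. Timp1, an inhibitor that is inducible in fibroblasts, had a site of 1351 bp (chrX:20869179-20870529) over both starts. This site held an AP-1 match 725 bp upstream. It was the only site in its body of 4.57 kb. With 9 sites within 50 kb the region had 4.11 times the density of chromosome X, the highest ratio of the module, although chromosome X has only 2.09 sites per 100 kb. Timp2, which also takes part in the activation of Mmp2, had a site of 2933 bp (chr11:118353138-118356070) and 10 body sites. Timp3, which is bound to the matrix, had adjacent promoter sites of 1137 and 1484 bp and 7 body sites. Timp4 had the narrowest, of 461 bp (chr6:115251732-115252192), which began 13 bp inside the gene and also lay within 1 kb of a start of Syn2.

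Timp1, Timp3 and Timp4 lie inside the synapsin genes Syn1, Syn3 and Syn2, respectively, on the other strand. Sites in these 3 Timp bodies are therefore also body sites of a synapsin gene, and the list does not tell which gene a site belongs to.

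**Figure D4:**
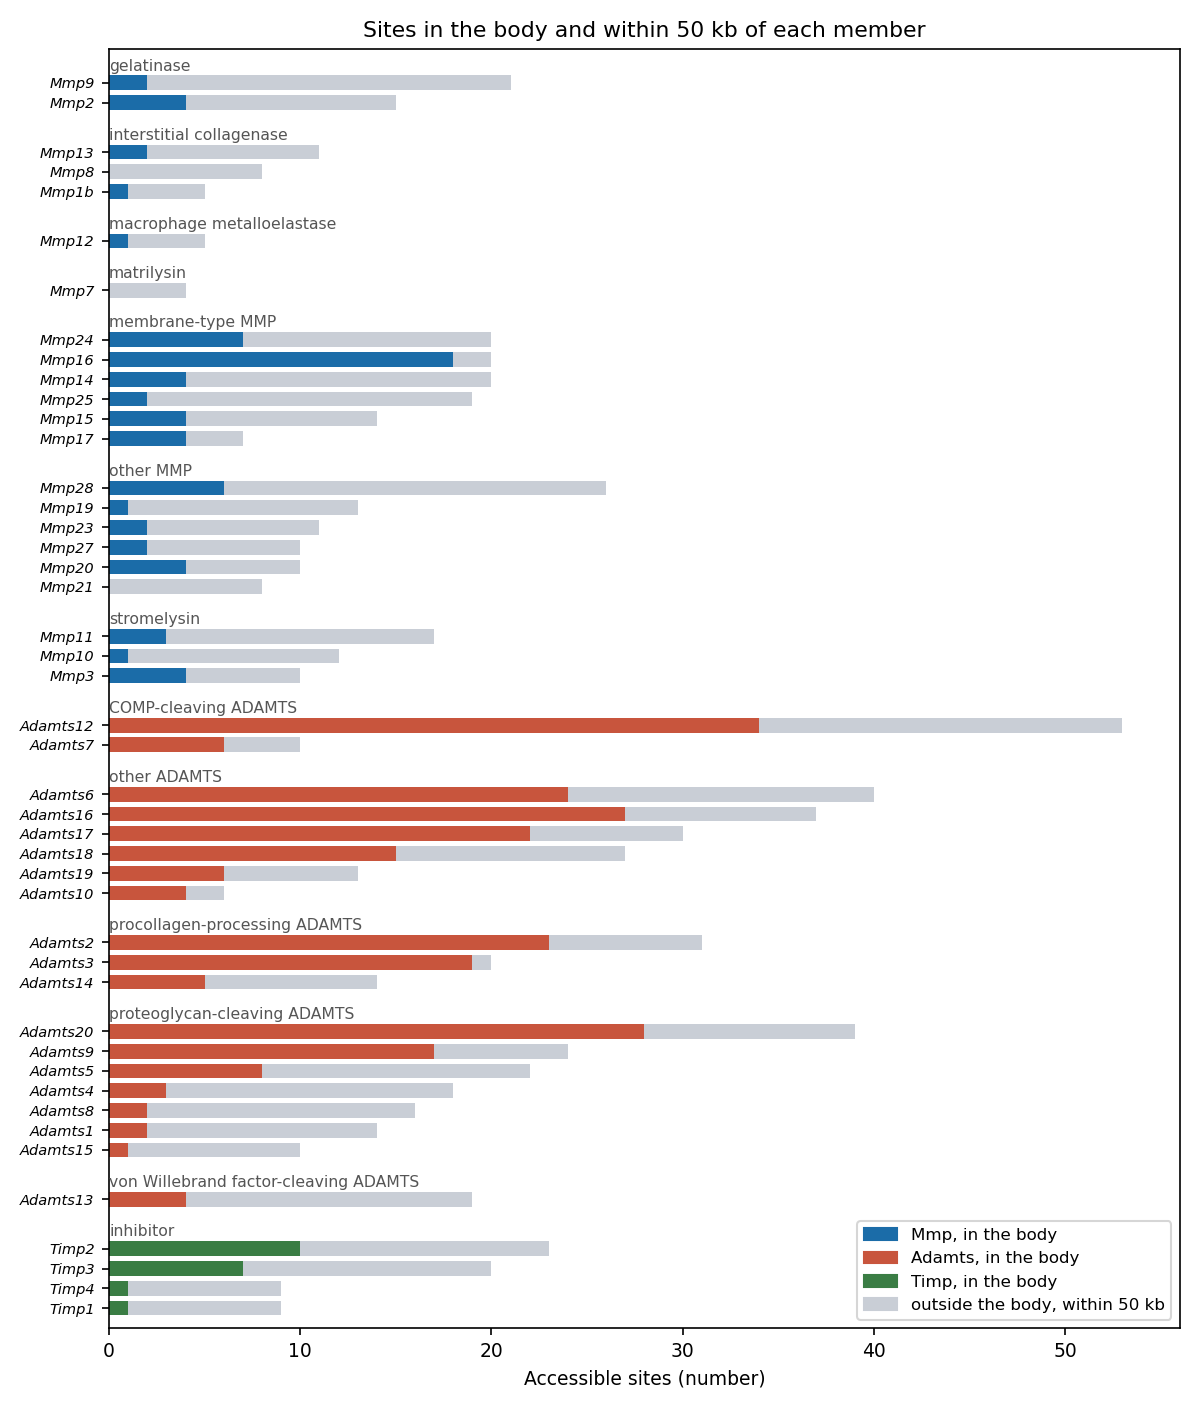
Number of accessible sites in the body (coloured) and outside the body within 50 kb (grey) of each of the 45 members, grouped by role. Adamts12 has the most, 53 with 34 in the body, and Mmp7 the fewest, 4 with 0 in the body.

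The 52 promoter sites of the module had a median width of 1072 bp (interval 948 to 1351 bp), compared to 1180.5 bp for the promoter sites of all protein-coding genes. Of the 52, 9 were at least 2000 bp wide (17.3%), compared to 9.31% over all genes, and all 9 were at genes with an island. The median was 1222.5 bp at members with an island and 999.5 bp at those without, against 1274 and 831.5 bp for all genes of these kinds. For the cluster it was 1029 bp.

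Longer genes of the module held more sites in their bodies. The Adamts genes had a median length of 114 kb and a median of 8 body sites, the Mmp genes 14.4 kb and 2, and the Timp genes 29.7 kb and 4. Per 100 kb of body the medians were 11.2, 14.1 and 16.3 sites. The median over the 45 members was 12.7 per 100 kb (interval 9.95 to 15.3) and that over all protein-coding genes 8.91, with 34 members above the latter. With a CpG island the medians were 13.5 for members and 11.4 for all genes. Without an island they were 11.3 for members and 0 for all genes. In windows of 50 kb around the genes, the density relative to the own chromosome had a median of 1.63 for members and 1.46 for all genes, and 26 of 45 members were above the latter. Of the body sites with their middle inside the gene, 291 or 88.4% were intronic, compared to 83.5% over all protein-coding genes, 16 were in coding exons and 22 in non-coding parts of exons.

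**Figure D5:**
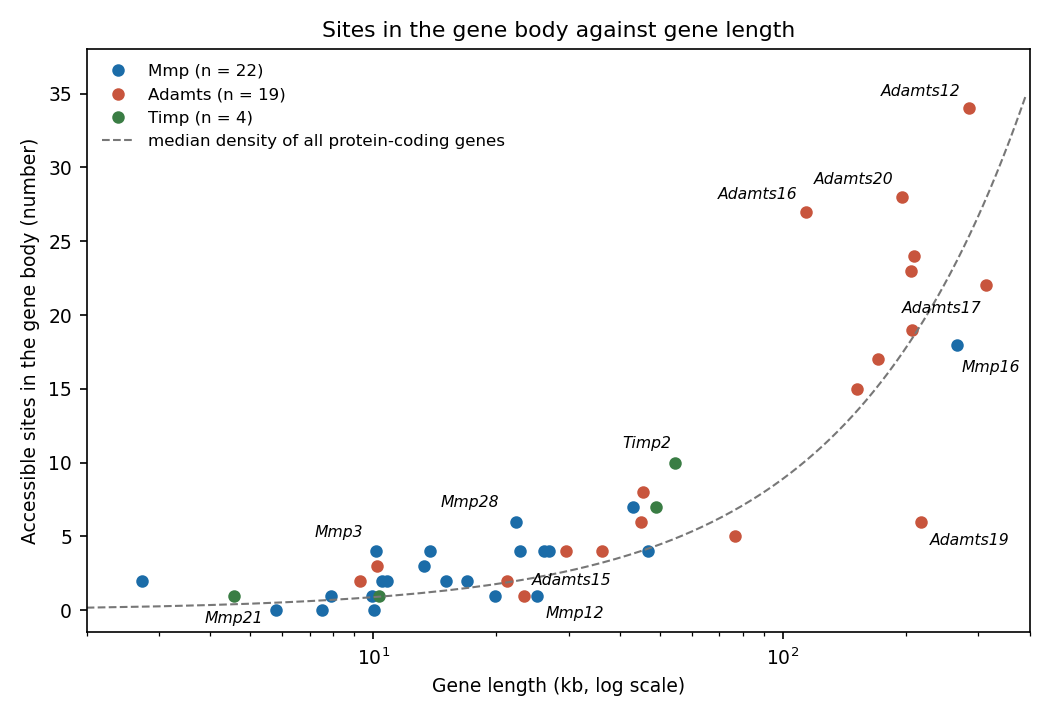
Number of accessible sites in the gene body against gene length in kb on a log scale, for 22 Mmp, 19 Adamts and 4 Timp genes. The dashed line is the median density of all protein-coding genes, 8.91 sites per 100 kb. Of the 45 members 34 lie above it, with Adamts16 (27 sites) far above and Adamts19 (6 sites) far below.

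Other genes of matrix turnover were compared as a list of 48 genes, of which 31 had a CpG island. Over all protein-coding genes a promoter site was present in 70.8%, in 95.8% of those with an island and in 36.5% of those without. On the list, 44 of 48 genes had a promoter site. These were 5 of 6 other inhibitors (such as Reck, not A2m), 3 of 4 plasminogen system genes (Plau, Plat and Plaur, not Plg), 4 of 4 proprotein convertases, 14 of 16 other proteases (not Ctss and Mep1a), 9 of 9 ADAMTS-like and enhancer genes and 9 of 9 substrates. A2m, an inhibitor known from plasma, had 0 sites within 50 kb, and its 5′ end was 102094 bp from the nearest site. Plg encodes the liver-made plasminogen.

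The fibroblast label was checked with markers. A promoter site was present in 9 of 10 fibroblast genes, all but Lum. It was also present in 4 of 5 epithelial genes (not Krt18), 4 of 4 endothelial genes and 2 of 5 leukocyte genes (Cd68 and Csf1r, not Ptprc, Spi1 and Cd3e). Over all genes a promoter site was present in 70.8%, in 95.8% with an island and in 36.5% without. Islands were found at 4 fibroblast, 4 epithelial, 1 endothelial and 0 leukocyte markers. A promoter site in this list therefore did not separate fibroblast from epithelial or endothelial genes, and it is not evidence that a member is expressed.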

How the data were processed

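ATAC-seq was performed by the authors on 10 libraries (5 groups of 2 replicates). Per their methods, reads were trimmed, aligned to mm10 with BWA and filtered, replicates were merged, and narrow peaks were called with MACS2. Its threshold, any shift for the Tn5 cut and the treatment of reads that fit several places are not given in the sources used here, and each could alter the number and edges of sites. The extraction protocol in the labels describes cross-linked chromatin for ChIP, whereas the study's methods describe ATAC-seq.

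The deposited list has 3 columns (chromosome, start, end) pooled over all libraries and no counts, so no test was run. Positions were read as 0-based and are printed 1-based. A promoter site overlapped, by at least 1 bp, 1 kb either side of any GENCODE M21 start site. CpG islands were computed outside repeats (at least 200 bp, GC over 0.5, observed to expected CpG over 0.6). Promoter sequences are from RefSeq (GRCm38.p6). Motifs were searched in the middle 200 bp as exact letters, apart from the CTCF consensus with its alternative letters. Members and gene lists were chosen with earlier results of these data known. Named in full were the cluster genes, the Timp genes, members without a promoter site and, per role, those with the most and fewest body sites. Computations, tested on simulated sites, ran in Python 3.11.15 with Matplotlib 3.10.9, SciPy 1.17.1, NumPy 2.4.6 and Numba 0.67.0.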

Additional observations from a re-analysis of the deposited data

How the results depend on the processing

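Depth and the spread between replicates are unknown, which limits every value to the presence of a listed site. Alternatives gave 47 values for 9 results. The number of sites within 50 kb of members, 739, became 512 with a reach of 20 kb and 1040 with a reach of 100 kb. Stricter islands lowered the share of members with an island from 60.0% to 46.7%. The number of members with a promoter site ranged from 37 (position by the middle of the site) to 43 (window of 3 kb). For cluster members it ranged from 5 to 8. The share over all protein-coding genes moved as well, from 70.8% to 76.4% with a window of 3 kb. It was 68.6% with 500 bp, 66.2% with the 5′ end alone and 65.5% after narrower sites were left out. Each of these lower shares stands against 38 members. For position by the middle no share over all genes is given here. With a window of 500 bp, Mmp12 and Adamts16 lost their promoter site. With a window of 3 kb only Mmp8 and Mmp21 had none, and the median width of member promoter sites was 944.5 bp. Without the sites narrower than the median of the list, 389 sites were left within 50 kb of members, the median was 8.77 body sites per 100 kb, and Mmp12 and Timp4 lost their promoter site. The share of member sites with an AP-1 match was 20.7% in the middle 400 bp and 28.8% in whole sites, which hold more letters. No paired analysis was possible because no replicate has a value of its own.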
